A study of Homo sapiens with 6 samples.

Results

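The genes described here are 10 regulators of entry into the cell cycle: the D-type cyclins CCND1, CCND2 and CCND3, the E-type cyclins CCNE1 and CCNE2, the kinases CDK4 and CDK6, and the activator transcription factors E2F1, E2F2 and E2F3. They were taken by gene symbol from a deposited table of 58395 gene identifiers, and each of the 10 symbols matched 1 identifier. All 10 passed the filter on low counts that left 19660 genes to test. The table comes from RNA sequencing of H1, an established human embryonic stem cell line derived from a blastocyst. The study has 6 libraries in 3 groups of 2: wild-type cells (WT), and 2 sets of BRPF1 knockout cells that the titles number KO 1# and KO 2#. The labels name no treatment and no time point. They do not say whether 1# and 2# are single clones, where BRPF1 was edited, or if the libraries of a group came from separate cultures, so the p-values may cover only technical spread between libraries.

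In early G1, D-type cyclins bind CDK4 or CDK6, and these complexes phosphorylate the retinoblastoma protein RB1 and its relatives. Phosphorylated RB1 releases E2F1, E2F2 and E2F3, which switch on the genes of DNA replication, those of E-type cyclins, and their own genes. Cyclin E with CDK2 then completes the phosphorylation of RB1. Inhibitors of the INK4 family block CDK4 and CDK6, and those of the CIP and KIP family block mainly cyclin E with CDK2. Embryonic stem cells are known for a short G1 phase, high cyclin E activity and little dependence on D-type cyclins, whereas fibroblasts rely on mitogens to induce cyclin D.

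Promoter sequences are shown for the E2F genes because E2F proteins act on their own promoters and because E2F1, E2F2 and E2F3 changed by such different amounts. RefSeq promoter windows (GRCh38.p14, 250 bases before to 50 bases after a start) were taken for 7 of the 10 genes, with 11 starts in all. No window of CCND1, CCND2 or CCNE2 was searched, so the counts below leave these genes out. Each window was searched on both strands for TTTCCCGC, TTTGGCGC, TTTCGCGC and TTTGCCGC. Of the 11 windows 3 held a match, 1 each for E2F1, E2F2 and E2F3, against 3.31% of the 35116 windows of all genes. The shorter words TTCCCGC and TTGGCGC were in the same 3 windows and in 9.23% of all. The 250 bases upstream of the start are printed 5′ to 3′ on the gene's strand, with the matches in capitals. E2F1 lies at chr20:33686386-33686635 (minus strand), E2F2 at chr1:23531234-23531483 (minus strand) and the first listed start of E2F3 at chr6:20401629-20401878 (plus strand).
E2F1: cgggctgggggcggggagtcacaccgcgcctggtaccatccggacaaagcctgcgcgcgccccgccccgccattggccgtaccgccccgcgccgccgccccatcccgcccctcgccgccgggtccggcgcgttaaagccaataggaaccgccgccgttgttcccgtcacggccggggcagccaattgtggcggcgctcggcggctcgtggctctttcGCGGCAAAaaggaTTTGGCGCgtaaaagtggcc
E2F2: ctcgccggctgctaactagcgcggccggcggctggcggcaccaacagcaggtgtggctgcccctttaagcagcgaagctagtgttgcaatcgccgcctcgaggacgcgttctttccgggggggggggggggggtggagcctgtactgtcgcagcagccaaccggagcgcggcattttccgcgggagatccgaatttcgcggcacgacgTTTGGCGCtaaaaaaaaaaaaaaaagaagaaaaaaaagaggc
E2F3: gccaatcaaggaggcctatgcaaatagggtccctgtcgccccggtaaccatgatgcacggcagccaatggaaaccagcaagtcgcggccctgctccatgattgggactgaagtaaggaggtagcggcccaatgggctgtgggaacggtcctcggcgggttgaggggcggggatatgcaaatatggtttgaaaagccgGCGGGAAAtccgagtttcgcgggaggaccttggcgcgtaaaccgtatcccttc

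In E2F1 a match on the opposite strand began 33 bases before the start and one on the gene's strand 20 bases before it. The match in E2F2 began 42 bases and that in the first window of E2F3 53 bases before the start. The other start listed for E2F3, and the listed starts of CCND3 (3), CDK6 (2), CCNE1 (1) and CDK4 (1), held none of these letters. The upstream bases of CCNE1 (chr19:29811741-29811990, plus strand), a gene that fell, and of the first listed start of CDK6 (chr7:92836574-92836823, minus strand), which rose most, are shown for comparison.
CCNE1: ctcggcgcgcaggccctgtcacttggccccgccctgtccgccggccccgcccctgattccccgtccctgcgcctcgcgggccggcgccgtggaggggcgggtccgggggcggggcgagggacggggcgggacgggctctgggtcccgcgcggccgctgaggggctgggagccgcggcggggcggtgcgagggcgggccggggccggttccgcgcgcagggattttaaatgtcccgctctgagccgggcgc
CDK6: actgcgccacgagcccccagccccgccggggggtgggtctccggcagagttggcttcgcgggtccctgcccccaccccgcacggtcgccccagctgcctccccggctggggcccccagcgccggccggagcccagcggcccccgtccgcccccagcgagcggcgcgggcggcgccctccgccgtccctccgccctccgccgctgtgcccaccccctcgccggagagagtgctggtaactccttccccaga

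Total counts per library ranged from 33421785 to 38098779. Values below are in CPM, counts normalised to library size and scaled by TMM, a method that sets libraries on a common scale by their typical gene. Collagen genes held 0.234% and 0.255% of the counts in WT and 14.9% to 15.9% in the knockout libraries. BRPF1 itself was at 23.1 and 28.4 CPM in WT and between 23.6 and 32.2 CPM in the knockout libraries (a log2 difference of 0.08 at adjusted p = 0.508). It was called lower by library totals (-0.66, adjusted p = 7.07e-06) and by totals that leave out the 20 most abundant genes (-0.32, adjusted p = 0.00777), so its transcript level gives no check of the genotype that holds across scalings. Of 8 pluripotent stem cell markers all 8 were lower in the knockout libraries, where 41.4% of all tested genes were. Their summed levels were 5931 to 6088 CPM in WT and 110 to 168 CPM in the knockouts, so the labelled cell type did not match its markers there. NANOG, TDGF1 and LIN28A had at most 10 counts in a knockout library, passed the filter only through WT and had to differ, so their calls are a description. The same holds for POU5F1, with 10 and 22 counts in the KO 1# libraries and 1 in each KO 2# library. All 11 fibroblast and mesenchyme markers were higher (568 to 596 against 121746 to 133953 CPM in sum), where 35.8% of all tested genes were. LUM and FAP were at 0 in both WT libraries. With COL3A1 and DCN, at most 7 counts in a WT library, they passed the filter only through the knockouts and had to differ. TWIST1, with 14 and 3 counts in the WT libraries, also passed only through the knockouts, so its call is a description. THY1 was higher by only 0.16 on the log2 scale under TMM, small beside the shifts between scalings given below. The 5 endothelial markers summed to 134 to 136 CPM in WT and 16.4 to 33.3 CPM in the knockouts and went both ways, with KDR at 112 and 5.08 CPM and PECAM1 at 0.143 and 11.5 CPM on average. PECAM1, the only endothelial marker called higher, had 3 and 11 counts in the WT libraries. It passed the filter only through the knockouts, so its call is a description. The 4 blood markers summed to at most 1.28 CPM in any library. The 5 epithelial markers were all lower (980 to 998 against 292 to 332 CPM), 2 of 3 tested neural markers were higher (175 to 203 against 206 to 231 CPM), and the trophoblast markers summed to 0.153 to 0.417 CPM in WT and 11.8 to 12.6 CPM in the knockouts. Of the latter, TFAP2A and CGB5 had at most 2 counts in a WT library and passed the filter only through the knockouts. GATA3, with 7 and 18 counts in the WT libraries, also passed only through the knockouts. The calls of all 3 tested trophoblast markers are thus a description. The epithelial EPCAM and GRHL2 had at most 6 counts in a knockout library and passed only through WT. Most of the neural sum was NES, at 186 CPM in WT and 214 CPM in the knockouts on average. It was higher by only 0.20 on the log2 scale under TMM, like THY1 small beside the shifts between scalings. The part of this difference in cell markers in the results below was not tested, and in such bulk samples fewer cells of a type and less RNA per cell cannot be told apart.

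Setting the knockout cells against WT asks how transcripts of the G1 machinery differ between these labelled groups. Transcripts of CDK6 and the 3 D-type cyclins rose, those of E2F1, E2F2 and CCNE1 fell, and CDK4 and E2F3 moved little. Among the 10 genes 5 were called higher and 5 lower at an adjusted p below 0.05 (edgeR quasi-likelihood test, Benjamini-Hochberg over all tested genes, two-sided). Over all 19660 genes 35.8% were called higher and 41.4% lower, so the number of calls among the 10 does not set them apart. KO 1# gave 5 higher and 5 lower (35.0% and 38.7% of all tested genes). KO 2# gave 5 higher and 4 lower (34.6% and 39.1%). Both comparisons use the same WT libraries. The median log2 fold change was 0.01 over the 10 genes and -0.13 over all tested genes.

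**Figure D1:**
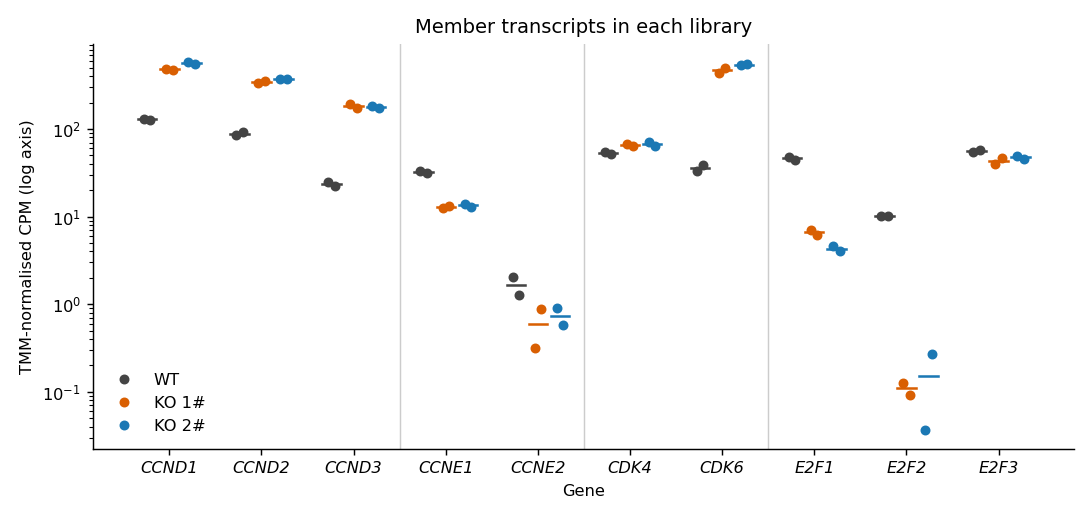
TMM-normalised CPM (log axis) of the 10 genes, 1 point per library and 1 bar per group mean, for WT, KO 1# and KO 2#. The D-type cyclins and CDK6 sit higher in all knockout libraries, E2F1, E2F2 and CCNE1 lower, and CDK4 and E2F3 close to WT.

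CCND1 encodes cyclin D1, the D-type cyclin most closely tied to mitogen signalling (ENSG00000110092, GRCh38 chromosome 11, 69641087 to 69654474, plus strand). It stood at 130 and 128 CPM in the WT libraries, at 487 and 475 in those of KO 1# and at 575 and 553 in those of KO 2#. The lowest knockout library was well above the higher WT library, and KO 2# lay above KO 1# without overlap. The knockout libraries differed from WT by 2.01 on the log2 scale (SE 0.06, 4.04-fold, adjusted p = 5.45e-16). LTO1, on the opposite strand, overlaps 10.3% of the exon bases of CCND1, with 402 to 787 counts per library against 6129 to 16399 for CCND1.

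CCND2 encodes cyclin D2 (ENSG00000118971, chromosome 12, 4273772 to 4305350, plus strand). It had 84.7 and 92.1 CPM in the WT libraries, 336 and 349 in those of KO 1# and 372 and 376 in those of KO 2#. All 4 knockout libraries were above both WT libraries, by an amount almost equal to that of CCND1. The knockout libraries differed from WT by 2.02 on the log2 scale (SE 0.06, 4.05-fold, adjusted p = 2.02e-15). AC008012.1, a protein-coding gene on the same strand, overlaps 13.8% of the exon bases of CCND2. No counts were given for AC008012.1, and the effect of this overlap was not tested. CCND3, which encodes cyclin D3 (ENSG00000112576, chromosome 6, 41934933 to 42050357, minus strand), had 1310 and 1076 counts in the WT libraries, 6042 and 5657 in those of KO 1# and 5035 and 5108 in those of KO 2#, or 23.7 ± 1.86 CPM in WT (SD, n = 2) and 179.6 ± 9.82 in the knockouts (SD, n = 4). It was the least abundant D-type cyclin in WT and rose furthest of the 3, by 2.92 on the log2 scale (SE 0.08, 7.56-fold, adjusted p = 4.96e-16). In CPM the knockout libraries did not overlap WT, while those of KO 1# (192 and 171) and KO 2# (182 and 172) overlapped each other.

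Per kilobase of exon, the D-type cyclins summed to 43.1 ± 0.0393 CPM per kb in WT (SD, n = 2) and 189 ± 12.4 in the knockout libraries (SD, n = 4). By this length CCND1 was first, CCND2 next and CCND3 last in every library. CCND1 made up 61.9% ± 0.913 of the sum in WT and 57.1% ± 1.64 in the knockouts. CCND3 went from 9.48% ± 0.752 to 16.4% ± 1.44, or from 18.5% to 29.9% when length was taken from the longest transcript. By that length CCND2 went from 25.5% to 22.0%, and CCND3 was above CCND2 in all 4 knockout libraries. The cyclin D pool thus grew in all its members, with a larger share of CCND3.

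CDK6 showed the largest rise of the 10 genes. It encodes one of the paired kinases that D-type cyclins activate (ENSG00000105810, chromosome 7, 92604921 to 92836594, minus strand). Its level was 33.5 and 38.4 CPM in the WT libraries, 436 and 501 in those of KO 1# and 532 and 549 in those of KO 2#. Every knockout library exceeded the WT libraries more than any D-type cyclin did. The knockout libraries differed from WT by 3.81 on the log2 scale (SE 0.08, 14.0-fold, adjusted p = 1.36e-17). Ranked by counts per exon base among 19636 genes with a length, CDK6 went from places 8485 and 7930 in WT to places 743 to 961 in the knockout libraries. Such a rank within a library needs no scaling between libraries.

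CDK4, the closest relative of CDK6 (ENSG00000135446, chromosome 12, 57747727 to 57756013, minus strand), had 54.4 and 51.9 CPM in the WT libraries, 66.6 and 63.8 in those of KO 1# and 70.1 and 64.5 in those of KO 2#. On this scale all knockout libraries were above WT, with a log2 difference of 0.32 (SE 0.07, adjusted p = 5.78e-04). The direction of CDK4 depended on the scaling: by library totals it was lower at -0.42 (adjusted p = 2.25e-05), and by totals that leave out the 20 most abundant genes it passed in neither direction (-0.0780, adjusted p = 0.313). Its rank among genes was 1796 and 1856 in WT and 1690 to 1836 in the knockout libraries, which overlap. TSPAN31 on the opposite strand overlaps 43.2% of the exon bases of CDK4, and had 441 to 570 counts per library against 1912 to 2847 for CDK4. Whether counting used strand is not given in the sources used here, and the effect of this overlap was not tested.

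The balance of the paired kinases changed within every library. There were 0.615 and 0.740 counts of CDK6 for each count of CDK4 in the WT libraries, 6.55 and 7.85 in those of KO 1# and 7.59 and 8.51 in those of KO 2#. The ratio was 11.3-fold higher in the knockouts, a log2 difference of 3.49, where the log2 ratio had an SD of 0.19 in WT (n = 2) and 0.16 in the knockouts (n = 4). Per kilobase of exon CDK6 held 14.9% ± 1.66 of the sum of both kinases in WT and 66.2% ± 2.47 in the knockouts. The WT share depends on the length used: it was 40.6% by coding length and 10.8% by longest transcript, and the knockout share was 88.4% and 57.6%. The fold change of the ratio does not depend on length or scaling.

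**Figure D2:**
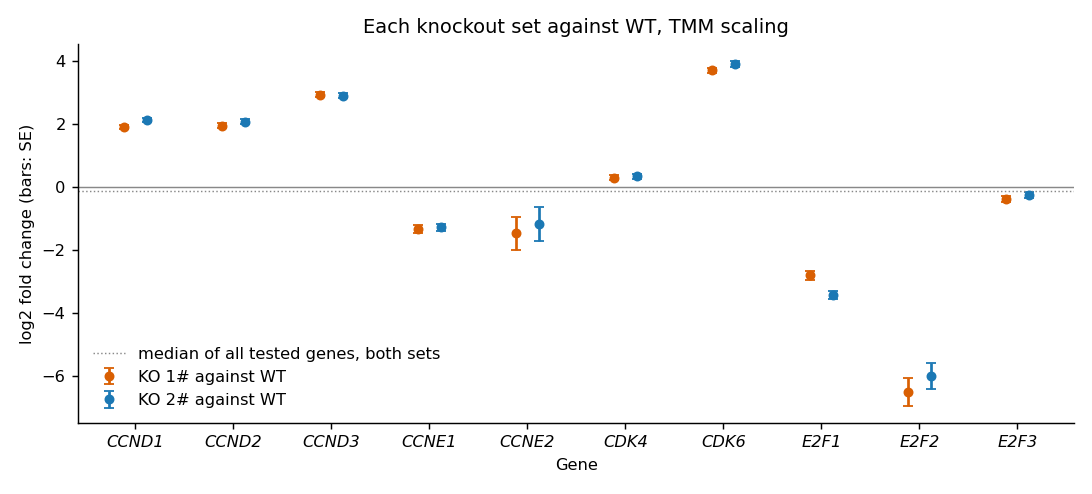
log2 fold change of each gene in KO 1# and KO 2# against WT under TMM scaling, with bars for the SE and a dotted line at the median of all tested genes (-0.13). CDK6 rises most (3.70 and 3.91), E2F2 falls most (-6.51 and -5.99), and CCNE2 has wide bars.

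Cyclin E transcripts were lower in the knockout libraries. CCNE1 encodes cyclin E1, the partner of CDK2 at the start of S phase (ENSG00000105173, chromosome 19, 29811898 to 29824308, plus strand). It had 33.3 and 31.6 CPM in the WT libraries, 12.4 and 13.4 in those of KO 1# and 13.8 and 13.0 in those of KO 2#. All 4 knockout libraries lay close together and below WT, with a log2 difference of -1.31 (SE 0.10, 2.47-fold lower, adjusted p = 7.53e-10).

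CCNE2, which encodes cyclin E2 (ENSG00000175305, chromosome 8, 94879770 to 94896678, minus strand), was scarce throughout, with 108 and 61 counts in the WT libraries, 10 and 29 in those of KO 1# and 25 and 17 in those of KO 2#. Its levels were 2.06 and 1.27 CPM in the WT libraries, 0.318 and 0.879 in those of KO 1# and 0.906 and 0.573 in those of KO 2#, so that the gap between the WT libraries was larger than that between the lower WT library and the highest knockout library. The knockout libraries differed from WT by -1.32 on the log2 scale (SE 0.43, adjusted p = 0.0106). This call rested on WT replicate 1, without which the difference was -0.93 (adjusted p = 0.217). In KO 2# alone CCNE2 did not pass the threshold (-1.18, adjusted p = 0.0540). In KO 1# alone it did (-1.47, adjusted p = 0.0198), though not without WT replicate 1 (-1.08, adjusted p = 0.215) or KO 1# replicate 1 (-0.92, adjusted p = 0.148). INTS8 on the opposite strand overlaps 37.0% of the exon bases of CCNE2, had 745 to 2271 counts per library, more than CCNE2 in each, and its counts were also lower in the knockout libraries. Its part in the counts of CCNE2 was not tested. Per kilobase CCNE1 made up 97.1% ± 0.843 of the cyclin E sum in WT and 97.2% ± 1.06 in the knockouts. That sum went from 13.1 ± 0.594 to 5.31 ± 0.297 CPM per kb.

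The activator E2Fs fell by very unequal amounts. E2F1, the first E2F to be described and a gene that E2F proteins themselves induce (ENSG00000101412, chromosome 20, 33675683 to 33686404, minus strand), had 48.0 and 44.1 CPM in the WT libraries, 7.10 and 6.12 in those of KO 1# and 4.56 and 4.01 in those of KO 2#. All 3 groups were apart from each other, with KO 2# lowest. The knockout libraries differed from WT by -3.11 on the log2 scale (SE 0.11, 8.65-fold lower, adjusted p = 1.16e-14). Its rank per exon base went from places 1576 and 1695 in WT to places 8295 to 10019 in the knockout libraries.

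E2F2, which acts with E2F1 in dividing cells (ENSG00000007968, chromosome 1, 23506430 to 23531220, minus strand), had 535 and 486 counts in the WT libraries, 4 and 3 in those of KO 1# and 1 and 8 in those of KO 2#. These counts correspond to 10.2 and 10.1 CPM in WT and to levels between 0.0362 and 0.270 CPM in the knockouts. It was close to absent from all 4 knockout libraries. The fitted log2 difference was -6.25 (SE 0.32), and with so few knockout counts its size is uncertain. With all knockout counts under the filter's minimum of 10, E2F2 passed the filter only through WT, where it is high, and had to differ, so its call is a description.

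E2F3, which has start sites for a longer and a shorter protein that counts per gene do not separate (ENSG00000112242, chromosome 6, 20401906 to 20493715, plus strand), had 54.5 and 57.0 CPM in the WT libraries, 40.1 and 46.4 in those of KO 1# and 49.2 and 45.3 in those of KO 2#. The knockout libraries were below WT by a small margin, with a log2 difference of -0.30 (SE 0.08, 1.23-fold lower, adjusted p = 0.00210), which is 0.17 below the median of all tested genes. By library totals the fall was larger (-1.03, adjusted p = 4.07e-10). In KO 2# alone (-0.24, adjusted p = 0.0279) the call was lost without WT replicate 2 (-0.21, adjusted p = 0.121) or KO 2# replicate 2 (-0.17, adjusted p = 0.231).

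Within libraries the E2F pool shifted toward E2F3. Counts of E2F1 for each count of E2F3 were 0.880 and 0.774 in the WT libraries, 0.177 and 0.132 in those of KO 1# and 0.0927 and 0.0886 in those of KO 2#, a 7.01-fold lower ratio. Per kilobase E2F1 made up 59.2% ± 2.05 of the sum of the 3 genes in WT and 19.9% ± 5.28 in the knockouts, and E2F3 34.8% ± 1.95 and 79.9% ± 5.24. By coding length the E2F3 share was 47.9% in WT and 88.2% in the knockouts, so that E2F3 rather than E2F1 led in WT on that measure. The sum of the 3 went from 31.1 ± 0.749 to 11.0 ± 0.518 CPM per kb.

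Across 8 ratios between these genes, 6 separated the WT from the knockout libraries completely and had the smallest p that an exact two-sided permutation test of 2 against 4 libraries can give (p = 0.133, adjusted 0.178 over the 8), so this test cannot reach 0.05 here. The 2 others were CCND1 to CCND2 and CCNE2 to CCNE1. How often ratios between other genes separate the libraries was not computed, so this number does not set these genes apart. Counts of CCND1 for each count of CCND2 were 1.54 and 1.39 in WT and between 1.36 and 1.55 in the knockouts (log2 difference -0.0035, exact permutation p = 1.0). The ratio of CCNE2 to CCNE1 differed by -0.09 on the log2 scale, with an SD of 0.64 over the knockout libraries (exact permutation p = 0.933).

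**Figure D3:**
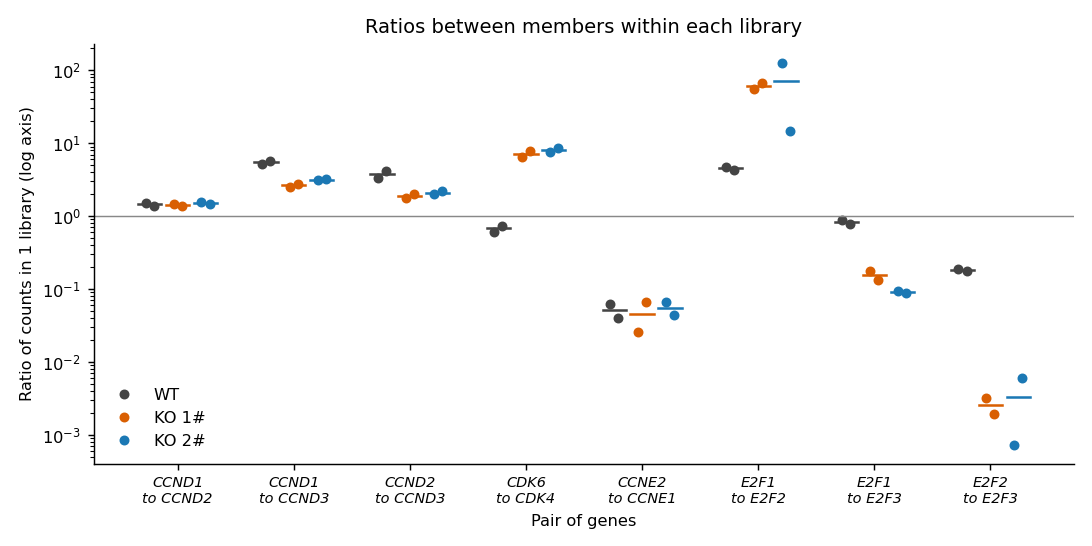
Ratio of the counts of paired genes within each library (log axis, line at 1), 1 point per library and 1 bar per group mean. CDK6 to CDK4 passes from below 1 in WT to between 6.55 and 8.51 in the knockouts, and CCND1 to CCND2 stays between 1.36 and 1.55 in all libraries.

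The scaling between libraries shifted all 10 genes together. The median log2 fold change of all tested genes was -0.13 under TMM, -0.18 under the size factors of DESeq2, -0.53 by totals that leave out the 20 most abundant genes and -0.86 by library totals. Relative to the median of all tested genes under TMM, CDK6 lay 3.94 higher, CCND3 3.05, CCND1 and CCND2 2.15 and CDK4 0.45 higher, and E2F1 lay at -2.98, CCNE1 at -1.17 and E2F2 at -6.12. Scaled by library totals, 4 genes of the 10 passed as higher and 6 as lower (21.9% and 59.9% of all tested genes), and by totals that leave out the 20 most abundant genes 4 and 5 (27.7% and 51.6%). Higher calls were 46.4% of all calls under TMM, 26.7% by totals and 34.9% by totals without the 20 genes. CDK6 remained higher at 3.08 by totals, CCND1 and CCND2 at 1.28 and CCND3 at 2.19.

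**Figure D4:**
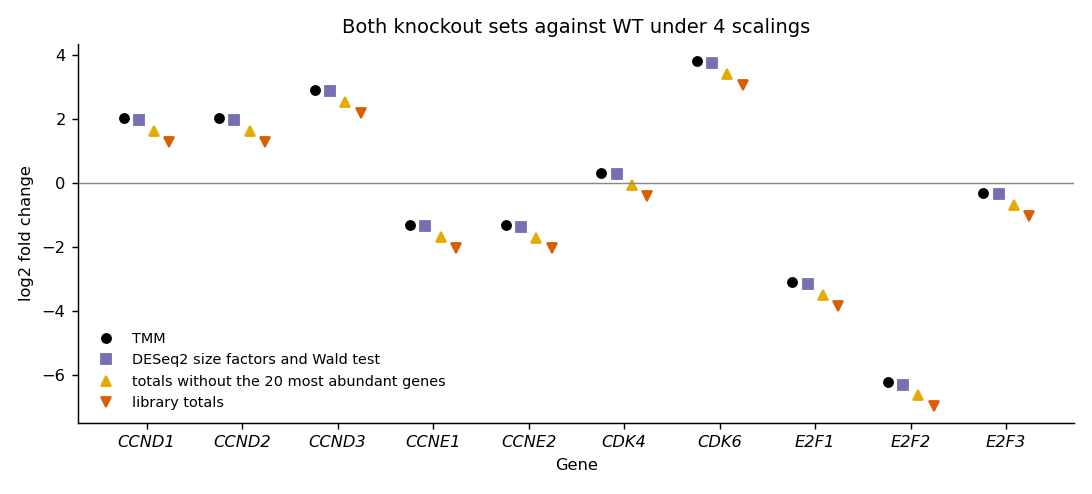
log2 fold change of both knockout sets against WT for the 10 genes under 4 scalings. Each scaling moves all genes by a similar amount, and CDK4 is the gene whose sign turns, from 0.32 under TMM to -0.42 by library totals.

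KO 1# and KO 2# differed in few of these genes. Of the 10, 1 was higher and 1 lower in KO 2#, where 1.58% and 2.28% of all tested genes were. CCND1 was higher in KO 2# by 0.23 on the log2 scale (SE 0.06, 1.17-fold, adjusted p = 0.0344), and E2F1 lower, with a log2 difference of -0.62 (SE 0.16, 1.54-fold lower, adjusted p = 0.0311). The call for CCND1 was lost without KO 2# replicate 1 (0.20, adjusted p = 0.377) or KO 2# replicate 2 (0.26, adjusted p = 0.203), by totals (0.18, adjusted p = 0.104) and by totals that leave out the 20 most abundant genes (0.20, adjusted p = 0.0702). That for E2F1 was lost without KO 1# replicate 1 (-0.52, adjusted p = 0.107), KO 2# replicate 1 (-0.72, adjusted p = 0.0579) or KO 2# replicate 2 (-0.53, adjusted p = 0.250). CDK6 was 0.21 higher in KO 2# (SE 0.07, adjusted p = 0.161). It passed without KO 1# replicate 2 (0.32, adjusted p = 7.54e-04). The other 7 genes differed by log2 values from -0.04 (CCND3) to 0.52 (E2F2, SE 0.82), none past the threshold.

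The rest of the pathway was read from 9 gene lists with 79 tested genes. Of these 15 were higher, 60 lower and 4 neither, against 35.8% and 41.4% of all tested genes. By library totals 9 were higher and 66 lower.

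All 4 genes of the INK4 inhibitors of CDK4 and CDK6 were higher, where 35.8% of all tested genes were. CDKN2A, whose locus encodes p16 and ARF, went from 0.497 and 0.312 CPM in WT to between 144 and 215 in the knockouts. CDKN2B, the inhibitor p15, went from 2 and 5 counts in WT to between 17252 and 20408. CDKN2D rose from 0.975 ± 0.0537 to 8.66 ± 1.43 CPM. CDKN2C had 2 and 7 counts in WT and between 93 and 176 in the knockouts. With so few counts in WT, CDKN2B and CDKN2C passed the filter only through the knockout libraries and had to differ, and the sizes of their folds are uncertain.

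Of the CIP and KIP inhibitors CDKN1A, which encodes p21, rose from 42.2 ± 1.13 to 965 ± 146 CPM, and CDKN1B, which encodes p27, fell from 41.8 ± 1.65 to 15.5 ± 1.95. CDKN1C, which encodes p57, had 17.3 and 14.9 CPM in the WT libraries, 17.2 and 14.8 in those of KO 1# and 11.8 and 10.2 in those of KO 2#, so that only KO 2# lay apart from WT. Over both knockout sets it was lower, at a log2 difference of -0.28 (adjusted p = 0.0465, or -1.01 by library totals at adjusted p = 2.25e-07), a call that was lost without WT replicate 1 (-0.16, adjusted p = 0.387), KO 1# replicate 2 (-0.22, adjusted p = 0.105) or KO 2# replicate 2 (-0.22, adjusted p = 0.148). In the RB family, RB1 rose from 21.3 ± 1.80 to 49.3 ± 3.07 CPM and RBL1, the p107 gene and itself an E2F target, fell from 12.3 ± 0.201 to 4.62 ± 0.720. RBL2, which encodes p130, was higher under TMM (0.63) and not past the threshold by library totals (-0.11, adjusted p = 0.269).

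Of 7 other E2F and DP genes 2 were higher and 5 lower, where 35.8% and 41.4% of all tested genes were. E2F8, an atypical repressor induced in S phase, fell from 13.0 ± 0.985 to 0.440 ± 0.207 CPM, and E2F5, a partner of the RB relatives changed by -1.24 on the log2 scale. E2F7 (0.58) and E2F6 (0.55), both repressors, were higher under TMM, and by library totals passed in neither direction (-0.16 and -0.18). E2F6 did not pass either by totals that leave out the 20 most abundant genes (0.15, adjusted p = 0.213).

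Most listed genes of DNA replication and mitosis fell. Of 29 tested E2F targets 27 were lower and 2 neither, with a median log2 fold change of -2.48. Over all tested genes 41.4% were lower under TMM and 59.9% by library totals, which applies to each count in this paragraph. ORC1 of the origin recognition complex fell from 44.9 ± 0.452 to 1.64 ± 0.717 CPM, the licensing factor CDT1 from 146 ± 3.68 to 5.94 ± 1.06, the transcription factor MYBL2 from 174 ± 15.9 to 10.4 ± 4.28 and the helicase subunit MCM3 from 309 ± 9.21 to 24.3 ± 4.41. The 2 that passed in neither direction, named after their values were seen, were the histone mRNA factor SLBP (-0.01, adjusted p = 0.918) and the methylation maintenance factor UHRF1 (0.16, adjusted p = 0.0566). All 7 later cyclins and CDKs were lower (median -3.22), among them CDK1 (-3.88), CCNB2 (-3.55), CCNB1 (-3.28) and CCNA2 (-2.99). CCNA1, named for its low counts, had at most 8 in a knockout library, passed the filter only through WT and had to differ. All 8 proliferation markers were lower (median -3.20), with CENPF at -4.65, TOP2A at -3.90, BUB1 at -3.75 and BIRC5 at -3.20. The fall of E2F1, and that of E2F2 as a description, stood beside falls of most listed E2F targets, later cyclins and proliferation markers. CCNE1 fell by less than the median of the E2F targets. Any link between these falls was not tested.

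Genes that set CDK activity, as activators or inhibitors, and genes that turn over G1 cyclins went both ways. Of the 9 regulators of CDK activity, which include the inhibitory kinases WEE1 and PKMYT1, 2 were higher, 6 lower and 1 (CCNH, named after its value was seen) neither. Among them the CDK1 inhibitory kinase PKMYT1 (-4.05), the phosphatases CDC25A (-3.91) and CDC25C (-3.44) and the kinase WEE1 (-2.29) fell. Of 9 turnover genes 4 were higher, 4 lower and 1 (AMBRA1, likewise) neither. Over all tested genes 35.8% were higher and 41.4% lower under TMM, so the split of the turnover genes does not set them apart. CKS1B, the cofactor of SKP2 in degrading p27, changed by -3.19, CRYAB by 3.03, the F-box gene FBXO4 by 2.08 and GSK3B, a kinase that marks cyclin D1 for export and breakdown, by 1.01.

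**Figure D5:**
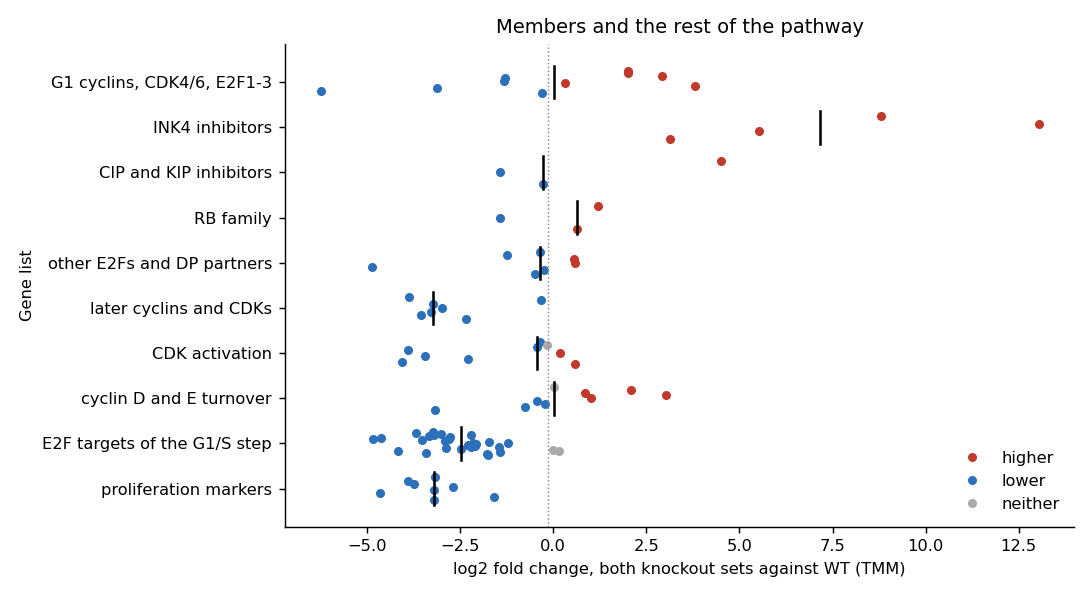
log2 fold change of both knockout sets against WT (TMM) for the 10 genes and the 9 pathway lists, 1 point per tested gene coloured by its call, with a black bar at each list's median and a dotted line at the median of all tested genes. INK4 inhibitors lie to the right (median 7.16), and E2F targets (-2.48), later cyclins (-3.22) and proliferation markers (-3.20) to the left.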

How the data were processed

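The authors deposited raw read counts by gene, with a column for each library and none pooled. The submitters' processing notes name HISAT2 2.0.4, SAMtools 1.3.1, HTSeq 0.6.0, DESeq 1.18.1 and GRCh38. Which step used each tool, the annotation release and the strandedness of counting were not given in the sources used here. Groups came from the labels. All 6 libraries entered 1 edgeR 4.0.16 quasi-likelihood fit (R 4.3.3, legacy method, robust, TMM) with group as the only term. The filter filterByExpr at a minimum count of 10 kept 19660 genes. p-values were adjusted by Benjamini-Hochberg over these, and SEs came from the F statistic. The fit had 3 residual degrees of freedom. Tested on simulated data for both knockout sets against WT (19660 genes, 200 changed), it recovered 88.5% of 2-fold and 99.0% of 4-fold changes. It made 14 and 10 false calls. The changed genes were well counted and went up and down in equal number. The simulation thus did not cover scarce genes such as CCNE2, or data where most genes and the collagen share differ as here. GENCODE 29 (GRCh38) held 58275 of the 58395 identifiers and gave positions, lengths and overlaps. Ratios used the exact permutation test of SciPy 1.17.1.

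The 10 genes, the gene lists and the naming rule were chosen with earlier results of these data known. All 10 genes could be named, and from each list up to 4 called genes with the largest change were named, among those with an average log2 CPM of at least 1. Where fewer than 2 passed, the 2 most abundant were taken. Alternatives were DESeq2 1.42.0, other scalings and filters, other edgeR settings, a replicate block, and leaving out each library. Replicates differed beyond counting noise (chi-square per degree of freedom of 4.26 to 11.4), so none was treated as 1 library deposited again, which does not show that they came from separate cultures.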

Additional observations from a re-analysis of the deposited data

Results flagged for a closer look

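CCND1 and E2F1 differed between KO 1# and KO 2# by the direct test of that difference (edgeR quasi-likelihood test, adjusted over all tested genes). CCND1 was higher in KO 2# by 0.23 on the log2 scale (adjusted p = 0.0344), and in both KO 2# libraries it exceeded both KO 1# libraries. E2F1 differed by -0.62 (adjusted p = 0.0311), lower in both KO 2# libraries than in both KO 1# libraries.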

How the results depend on the processing

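CCND1, CCND2, CCND3, CCNE1, CDK6, E2F1, E2F2 and E2F3 kept their direction and call for both knockout sets against WT in the 14 alternatives run, with E2F3 from -1.03 to -0.24. For E2F2, which passed the filter only through WT and had to differ, the kept call is a description. CCNE2 kept its direction, from -2.05 to -0.93, and lost its call in 1 (adjusted p from 2.34e-04 to 0.217). CDK4 ranged from -0.42 to 0.35. It turned lower by library totals in both sets (-0.42), KO 1# (-0.41) and KO 2# (-0.42), and was at -0.0780, -0.0838 and -0.0722 by totals that leave out the 20 most abundant genes. By library totals RBL2 (-0.11), E2F7 (-0.16) and E2F6 (-0.18) turned too without being called lower, and 9 rather than 15 list genes were higher. BRPF1, not called under TMM, was called lower by totals (-0.66) and without the 20 genes (-0.32), and ran from -0.0644 to 0.23 leaving out 1 library. 

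Between KO 1# and KO 2# the calls were unstable. No gene was higher by totals or without the 20 genes (0), and 2 were with only the groups compared. The number lower was 0 with the current quasi-likelihood method (E2F1 -0.62, adjusted p = 0.0909) and with only the groups compared. Leaving out 1 library gave 0 to 2 higher and 0 to 1 lower. The sign turned for CDK4 by totals (-0.0057), and over the left-out libraries CCND3 ran from -0.11 to 0.0482, CCNE2 from -0.25 to 1.21, CDK4 from -0.0165 to 0.11 and E2F2 from -1.50 to 1.29. With the replicate block 2 genes were higher (CDK6 at 0.21, adjusted p = 0.00103, was added), and the calls of the 10 genes against WT were as without it. The numbers share no stated culture or day, and the differences between replicates 1 and 2 correlated by 0.0110 to 0.0336 between groups, so they were not treated as pairs. CCNE2 in KO 2# against WT passed in some alternatives and not in others (adjusted p from 0.00268 to 0.374). Depth limits E2F2 and CCNE2, which had at most 8 and 29 counts in a knockout library. The cause of these changes was not tested.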
